A study of Mus musculus with 6 samples.

Results

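The Zfp genes are the mouse genes whose symbol is Zfp followed by digits, most of them coding for zinc finger proteins. From the gene counts of 6 libraries, the autosomal protein-coding genes of this name, apart from Zfp36, were taken when their counts summed over all libraries reached 1200. This kept 277 of the 357 such genes, out of 48526 genes listed. The other 80 lay below that count, and 8 of them had no count at all. Just above the minimum stood Zfp383 with 1207 counts and Zfp456 with 1210, and just below it Zfp882 with 1178 and Zfp273 with 1166. The genes were thus chosen by their summed count, which does not use the difference between genotypes. All 277 passed the filter on low counts used in the test. Of these, 6 had under 600 counts in 1 of the genotypes, and 3 of the 6 were later called lower in KO. These 3 were Zfp383, Zfp667 and Zfp931, which had under 600 counts in KO and reached the minimum only through their WT counts.

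RNA was sequenced from primary renal tubular epithelial cells, cultured from the digested kidney cortex of mice aged 4 to 5 weeks. The 3 KO libraries came from Setd2(F/F)Ksp-Cre+ mice, which have floxed Setd2 alleles and express Cre under the Ksp-cadherin (Cdh16) promoter of tubule epithelium. The 3 WT libraries came from Setd2(F/F) mice, which carry the same floxed alleles without Cre, so effects of Cre and of the deletion cannot be told apart. All cultures were grown in a medium with 20 ng/ml EGF and 100 nM hydrocortisone. The comparison asks how the transcripts of the Zfp genes differ between KO and WT cultures. The labels do not say that each library is a separate animal, so p-values measure only the spread between these libraries.

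SETD2 is the enzyme that trimethylates histone H3 at lysine 36 along transcribed genes. Most Zfp proteins bind DNA through a row of C2H2 fingers, each holding a zinc ion. Many also carry a KRAB domain, which recruits the corepressor KAP1 (TRIM28) and through it the methyltransferase SETDB1 and HP1 proteins, and this machinery silences transposable elements and holds the methylation of imprinted regions. KRAB zinc finger genes multiplied by tandem duplication and lie in clusters on several chromosomes. In many cell types the bodies of clustered zinc finger genes carry both trimethylated lysine 36 and trimethylated lysine 9 of histone H3.

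The tandem origin can be read from the coding sequences of 6 neighbours on chromosome 7, which lie together near the start of the cluster with the lowest median described further on. The lines give the 66 coding bases that begin at the KRAB A box match, 5′ to 3′, read from the longest coding sequence of each gene in GENCODE M21. Capitals mark the 15 positions at which the 6 genes are not all alike.
Zfp235: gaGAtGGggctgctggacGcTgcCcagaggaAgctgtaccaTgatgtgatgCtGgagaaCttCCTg
Zfp111: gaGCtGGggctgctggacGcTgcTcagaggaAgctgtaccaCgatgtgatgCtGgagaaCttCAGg
Zfp109: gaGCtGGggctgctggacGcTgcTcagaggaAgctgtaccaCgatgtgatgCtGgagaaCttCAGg
Zfp93: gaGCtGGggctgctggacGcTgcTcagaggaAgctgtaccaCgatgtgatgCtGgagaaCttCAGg
Zfp61: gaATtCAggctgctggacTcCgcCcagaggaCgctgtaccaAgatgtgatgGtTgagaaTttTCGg
Zfp94: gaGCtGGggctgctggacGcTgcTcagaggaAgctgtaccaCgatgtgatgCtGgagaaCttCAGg
Zfp111, Zfp109, Zfp93 and Zfp94 were identical over all 66 bases. Zfp235 shared 61 of the 66 bases with each of them and Zfp61 shared 52. How the authors' counting treated reads that match several genes was not given in any source used here, and values of such near copies are uncertain. As a measure of this, windows of 50 bases of each gene's exons were looked up in all other genes. In 39 of the 277 genes at least 10% of the windows were shared, and Zfp93 (20.7%) was among them while Zfp61 had none (0%).

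Across the 6 libraries the counts summed to between 86078636 and 106974842. WT replicate 1 stood apart by transcript composition. Relative to the mean over the libraries its genes of 40% GC were 0.19 higher on the log2 scale and its genes of 60% GC were 0.35 lower (a value of -0.35), while the other libraries stayed between -0.07 and 0.14 at those contents. KO replicates 2 and 3 expressed Xist, the RNA of the inactive X chromosome, at 507 and 606 CPM (CPM, read counts scaled to library size), while the other 4 libraries were under 1 CPM. Xist marks female cells, so the groups differ in sex. The counts over all Zfp genes, by KRAB match and by place in a cluster are also given without these libraries, which leaves KO replicate 1 alone against 3 WT libraries. The tubular markers summed to 6363 to 7386 CPM in WT and 7325 to 7392 CPM in KO, with Slc34a1 of the proximal tubule near 0 in all. The summed markers of podocytes, endothelium and leukocytes lay higher in every KO library than in any WT library (154 to 190 against 96.6 to 99.3 CPM, 14.9 to 25.9 against 8.52 to 10.7 and 41.3 to 50.04 against 27.9 to 32.6), while those of fibroblasts overlapped (61.3 to 113 against 58.5 to 81.6). Called higher in KO were 7 of 16 tubular, 4 of 7 podocyte, 5 of 7 endothelial, 3 of 7 leukocyte and 3 of 5 fibroblast markers tested, where 12% of all genes tested were called higher, and 0 were called lower. Their part in the Zfp values was not tested, and in such bulk cultures fewer cells of a type and less RNA per cell cannot be told apart.

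Zfp genes were more often lower than higher in KO. At an adjusted p below 0.05 in edgeR's quasi-likelihood test, 57 of the 277 fell and 8 rose, which is 20.6% and 2.89%. Of all 17571 genes tested, 9.08% fell and 12% rose. Of the 10799 other protein-coding genes with the same minimum count, 12% fell and 11.9% rose. The median log2 fold change (KO over WT) was -0.16 over the Zfp genes, -0.04 over the other protein-coding genes and -0.01 over all genes tested, and 209 of the 277 values were negative. In 115 Zfp genes every KO library lay below every WT library and in 13 above, where such separation was found in 21.3% and 20.6% of all genes tested and in 26.6% and 19.9% of the other protein-coding genes. The differences were small throughout, since log2 fold changes ran from -0.67 to 0.80.

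The count of genes that fell, and its distance from the background, changed with the libraries used. Without KO replicate 1 only 10 Zfp genes were called lower and 3 higher. The share lower was then 3.61%, near the 3.42% of the other protein-coding genes, and the median was -0.13. The share higher was 1.08%, against 6.81% of those genes, whose median was -0.02. Without KO replicate 3 the calls were 25 and 5, with 9.03% lower against 4.44% of those genes. Without the Xist-positive libraries 3 Zfp genes were called lower and 0 higher, and the 1.08% lower was near the 1.20% of the other protein-coding genes. In that fit the KO group is a single library, assumed to vary like the WT libraries. With Xist-positive libraries as a term, KO replicate 1 alone carries the comparison as well, and 13 were called lower and 1 higher (4.69% lower, against 2.01% of those genes). The median was -0.20 in both of these fits. When each library was left out in turn, 10 of the 57 lower calls and 3 of the 8 higher calls were kept in all 6 fits. A call named below without such a limit may still have been lost in some of them. Without WT replicate 1 the calls were 45 lower and 8 higher with a median of -0.11, and the share lower was then 16.2% against 13.0% of the other protein-coding genes.

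Zfp genes that code for a KRAB domain had lower values than the others. A KRAB A box match was found in 143 of the 277 genes, and of these 38 fell and 1 rose with a median log2 fold change of -0.25. Among the 134 genes without such a match, 19 fell and 7 rose with a median of -0.08. The share lower was thus 26.6% with a KRAB match and 14.2% without, beside the 12% of other protein-coding genes. This match was widened after sequences had been seen. With the stricter match the gap was smaller, at 23.6% of 127 genes against 18.0% of 150, with medians of -0.23 and -0.10. By that match the order of the shares turned without KO replicate 1, at 3.15% with the match and 4.00% without. It also turned without KO replicate 2 (11.02% and 13.33%), KO replicate 3 (7.87% and 10%) or WT replicate 1 (15.75% and 16.67%). The order turned as well with a filter on a mean CPM of 1 (15.75% and 16%) and with Xist-positive libraries as a term. Without WT replicate 2 (14.17% and 12%) or WT replicate 3 (30.71% and 23.33%) it was kept. Without the Xist-positive libraries 2 genes with the wider match and 1 without were called lower and 0 higher in both, with medians of -0.30 and -0.09. Without KO replicate 1, 7 genes with the wider match were lower and 0 higher, and 3 without it were lower and 3 higher. Genes with KRAB had a like median inside the clusters (-0.25, 94 genes) and outside them (-0.20, 49 genes). Genes without a match were at -0.07 inside (29 genes) and -0.08 outside (105 genes). Such a gene may still code for a KRAB domain that the pattern misses, as is known of Zfp445. By finger number, the 158 genes with 10 or more C2H2 matches had a median of -0.23, with 40 called lower and 5 higher (25.3% and 3.16%). The 96 with 3 to 9 had -0.12, with 15 lower and 1 higher (15.6% and 1.04%). The 23 with fewer had -0.03, with 2 lower and 2 higher (8.70% each). Beside these, 12% of other protein-coding genes were called lower and 11.9% higher. The difference between the KRAB and other genes is a description and was given no test.

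**Figure D1:**
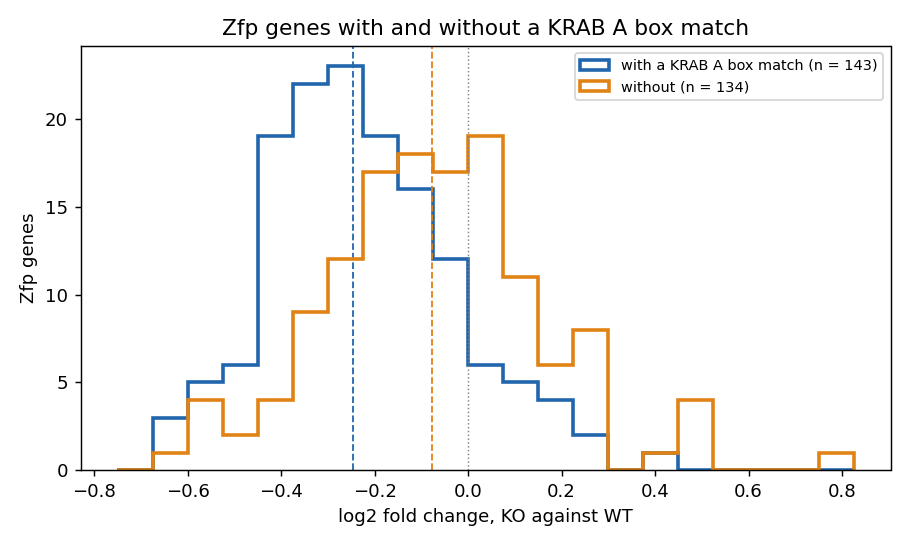
Number of Zfp genes by log2 fold change (KO over WT) for the 143 genes with a KRAB A box match and the 134 without. Dashed lines mark the medians of -0.25 and -0.08.

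KRAB genes under other names were mostly below 0 too. The 40 KRAB C2H2 genes with other symbols and the same minimum count had a median of -0.20 and 36 negative values. Of these, 6 were called lower and 0 higher. The 15% lower is near the 12% of other protein-coding genes, of which 11.9% were called higher. The Zkscan genes, which carry a SCAN domain and often KRAB, had 2 of 8 called lower (25%) and a median of -0.19. Of the Zscan genes 0 of 8 were called in either direction by edgeR or DESeq2 (1 lower at an unadjusted p below 0.05) and the median was -0.04. Zbtb genes, which join fingers to a BTB domain, had 3 of 37 called lower (8.11%), 0 higher and a median of -0.12. Klf genes, with few fingers and no KRAB, had 2 of 12 called higher (16.7%), 0 lower and a median of 0.09.

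GC content moved with these values. The KRAB genes had a median transcript GC of 41.2%, the other Zfp genes 48.6% and the other protein-coding genes 49.6%. In the lowest quartile of GC content over protein-coding genes, 24.3% of 144 Zfp genes fell against 17.5% of other protein-coding genes. In the second quartile it was 26.4% of 53 against 15.8%, and in the third 19.5% of 41 against 10.2%. In the highest quartile 0 of 39 Zfp genes fell and 12.8% rose, against 4.74% and 18.7% of other protein-coding genes. In that quartile 2 Zfp genes were lower at an unadjusted p below 0.05 in edgeR, and 0 were called lower by DESeq2. With each library's GC trend fitted as an offset, 62 Zfp genes fell and 12 rose and the median was -0.11. In that fit 26.6% of KRAB genes and 17.9% of the others fell, against 17.2% of other protein-coding genes, so the share of Zfp genes without a match came close to that of the other genes.

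Of the 277 genes, 123 lay in 15 clusters, defined as chains of Zfp genes with gaps of at most 500 kb that held at least 4 genes above the count. The clustered genes had 33 called lower and 2 higher (26.8% and 1.63%) and a median of -0.24. The 154 outside had 24 lower and 6 higher (15.6% and 3.90%) and a median of -0.13. Of the other protein-coding genes 12% were lower and 11.9% higher, and in 26.6% every KO library lay below every WT library. The counts given below for each cluster stand beside these shares. Without the Xist-positive libraries 0 clustered genes and 3 others were called lower, with 0 higher in both and medians of -0.27 and -0.15. Without KO replicate 1, 5 clustered genes were lower and 1 higher, and 5 others were lower and 2 higher. The shares lower were then 4.07% and 3.25%, both near the 3.42% of the other protein-coding genes. The shares higher were 0.81% and 1.30%, against 6.81% of those genes. All 15 cluster medians were negative with all libraries, from -0.03 to -0.45. That at 21.0 Mb on chromosome 17 was 0.0052 without WT replicate 1 and 0.013 with the GC offset, and that at 22.1 Mb on chromosome 9 was 0.0031 when genes were filtered on a mean CPM of 1. In 10 clusters the median of each KO library lay below that of every WT library, and in 5 the groups overlapped. Such separation is not particular to these clusters. The library medians of the other protein-coding genes were also apart, by less, at -0.007 to 0.006 in WT and -0.053 to -0.028 in KO. The 116 tested genes inside the cluster spans with fewer than 3 finger matches had a median of 0.05, with 8 called lower and 10 higher. These are 6.90% and 8.62%, beside 9.08% and 12% of all genes tested. The 16 other finger genes in those spans were at -0.18 with 3 lower (18.8%) and 0 higher.

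**Figure D2:**
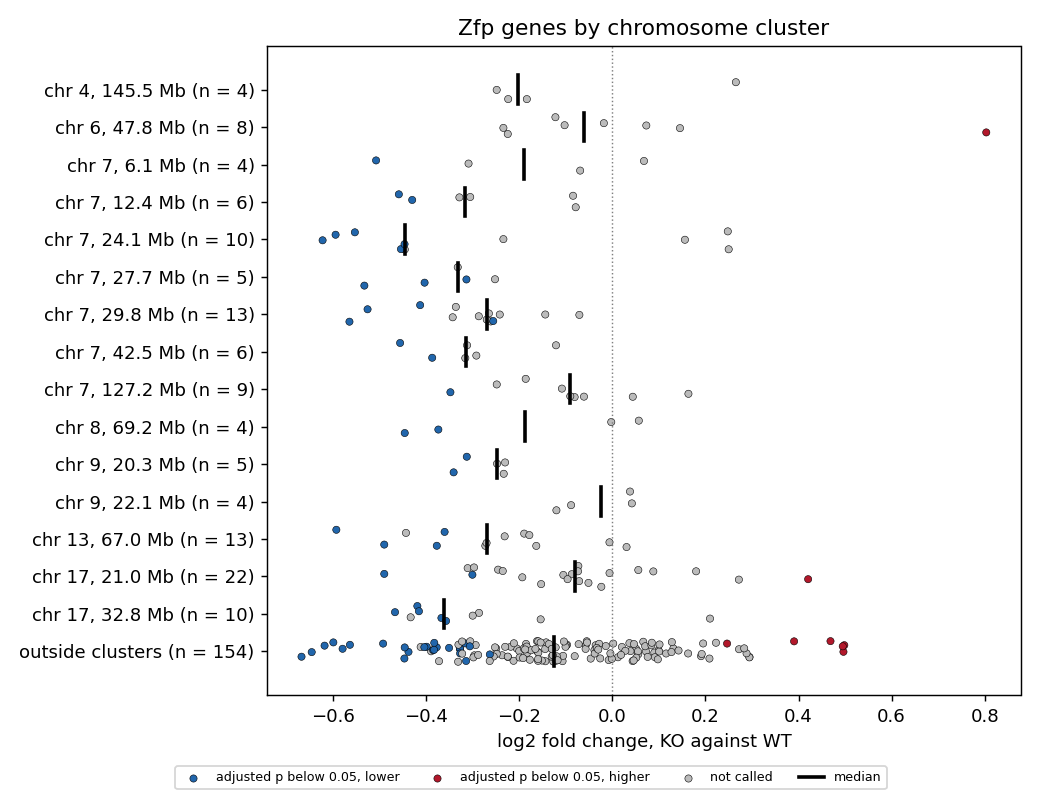
Log2 fold change (KO over WT) of each Zfp gene by cluster, named by chromosome and start in Mb, with the genes outside clusters at the bottom. Black bars are medians and coloured points passed the test. All 15 cluster medians lie below 0, though that of chromosome 17 at 21.0 Mb is 0.013 with the GC offset, and the lowest is that at 24.1 Mb on chromosome 7.

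The cluster with the lowest median was on chromosome 7 at 24.1 Mb (mm10 chr7:24081924-25227507), with -0.45 over 10 genes and 5 called lower. Its median level relative to the WT mean was 0.00, -0.03 and 0.03 in the WT libraries and -0.53, -0.34 and -0.35 in KO. Its genes split by their place and by the wider KRAB match, which was adopted after sequences had been seen. By the stricter match 0 of the 10 genes had one. The 6 KRAB genes with the sequences above, all between Zfp180 and Zfp428, had log2 fold changes from -0.62 to -0.45. Zfp93, a KRAB gene with 13 finger matches (chr7:24270420-24277794), measured 7.69, 7.79 and 7.46 CPM in WT and 4.91, 5.17 and 4.82 in KO. Its groups were far apart, with a log2 fold change of -0.62 ± 0.10 (SE, 3 against 3 libraries) and an adjusted p of 0.00214. Zfp61 measured 4.67, 4.47 and 4.93 CPM in WT and 2.89, 3.12 and 3.30 in KO, again without overlap (-0.59 ± 0.12, adjusted p = 0.00664). Zfp94 fell by 0.55 on the log2 scale, Zfp111 by 0.45 and Zfp109 by 0.45. Zfp235 was at -0.45 ± 0.15, just short of the threshold (adjusted p = 0.0562).

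The other 4 genes of that span have no KRAB match, though the pattern may miss a KRAB domain. Zfp180, the most abundant per length at 7.55 RPKM (CPM per kilobase of exon), was at -0.23 with an adjusted p of 0.0856. Zfp428, Zfp574 and Zfp526 lie beyond it at 24507006, 25072567 and 25221425 and were at 0.25, 0.16 and 0.25, none of them called. Their GC contents were 64.4%, 58.3% and 57.5%, while Zfp93 had 46.0% and Zfp61 52.7%. The 20 tested genes with fewer than 3 finger matches in this span had a median of 0.18, with 4 called higher and 0 lower. Of all genes tested 12% were called higher and 9.08% lower. The cluster median was -0.32 without KO replicate 1 and -0.53 without the Xist-positive libraries.

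The neighbouring clusters on chromosome 7 shifted in the same direction. At 12.4 Mb the 6 genes had a median of -0.32, and all 6 values were negative. Zfp606 fell from 3.66 ± 0.062 to 2.66 ± 0.36 CPM (mean ± SD, n = 3; -0.46, adjusted p = 0.0373), and Zfp329 fell by 0.43. The Zfp606 call was lost whichever of the 6 libraries was left out, and kept in 7 of 17 refits. Zfp110, which codes for a partner of the p75 neurotrophin receptor, was the most abundant there at 8.67 RPKM and stayed at -0.08 (adjusted p = 0.535), as did Zfp324 (-0.08). That median was -0.22 without KO replicate 1 and -0.50 without the Xist-positive libraries. At 27.7 Mb the 5 genes were all separated between the groups, where 26.6% of the other protein-coding genes lay lower in every KO library. Of the 5, 3 were called lower (60%, against 12% of those genes) and the median was -0.33. Zfp974 fell from 6.14 ± 0.52 to 4.24 ± 0.56 CPM (-0.53, adjusted p = 0.0158), and Zfp626 and Zfp60 fell by 0.40 and 0.31. The call of Zfp60 was kept in only 4 of 17 refits and lost in each that left out 1 library other than WT replicate 3. That of Zfp626 was lost when any 1 KO library was left out. Zfp850, the most abundant, was at -0.33 (adjusted p = 0.0506) and Zfp59 at -0.25.

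At 29.8 Mb on chromosome 7 (chr7:29768552-30169750), 13 Zfp genes are packed in 401 kb. All 13 values were negative. In 11 of them every KO library lay below every WT library, as in 26.6% of the other protein-coding genes. Called lower were 4 (30.8%), against 12% of those genes. The library medians were 0.09, -0.05 and -0.03 in WT and -0.33, -0.30 and -0.23 in KO. Zfp420, with 19 finger matches, measured 4.48, 4.23 and 3.68 CPM in WT and 2.49, 2.79 and 3.08 in KO (-0.56 ± 0.14, adjusted p = 0.0158). Zfp383, one of the genes just above the minimum count, fell by 0.53 and Zfp790 by 0.41. The Zfp383 call was kept in 9 of 17 refits, and this gene reached the minimum only through its WT counts. Zfp146, a protein made almost wholly of fingers, was the most abundant there at 23.0 RPKM. It measured 86.8, 79.0 and 80.3 CPM in WT and 67.1, 67.1 and 71.8 in KO (-0.26 ± 0.07, adjusted p = 0.0281). Its call was lost when WT replicate 2 or any 1 KO library was left out. Zfp568, a KRAB repressor of a placental transcript of Igf2, measured 113, 103 and 105 CPM in WT and 94.8, 102 and 94.0 in KO. Its groups were close, with a log2 fold change of -0.14 ± 0.07 and an adjusted p of 0.169. Zfp84 had the highest value of the cluster at -0.07.

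At 42.5 Mb on chromosome 7 all 6 genes have a KRAB match, all 6 values were negative and the median was -0.31. Zfp719 measured 22.7, 19.8 and 18.8 CPM in WT and 14.5, 14.6 and 15.6 in KO, without overlap (-0.46 ± 0.10, adjusted p = 0.00753). Zfp976 fell by 0.39, though 21.8% of its windows are shared with other genes and its call was kept in 8 of 17 refits. Zfp715, the most abundant, was at -0.32 (adjusted p = 0.0529), and Zfp975 at -0.12. In the same span 3 of 8 tested genes with fewer than 3 finger matches were called higher, with a median of 0.45. Of all genes tested 12% were called higher. The chromosome 7 clusters at 6.1 and 127.2 Mb had medians of -0.19 and -0.09. At 6.1 Mb Zfp667 fell by 0.51 (adjusted p = 0.0438), while Zfp787, the most abundant, was at 0.07. The Zfp667 call was kept in 7 of 17 refits and lost when any 1 library other than WT replicate 3 was left out. Zfp667 also reached the minimum count only through its WT counts. At 127.2 Mb Zfp629 fell from 33.5 ± 1.2 to 26.3 ± 2.3 CPM (-0.35, adjusted p = 0.0182). Zfp668, at 0.16, shares exon sequence on the opposite strand with Zfp646, and Zfp553, the most abundant, was at -0.06.

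**Figure D3:**
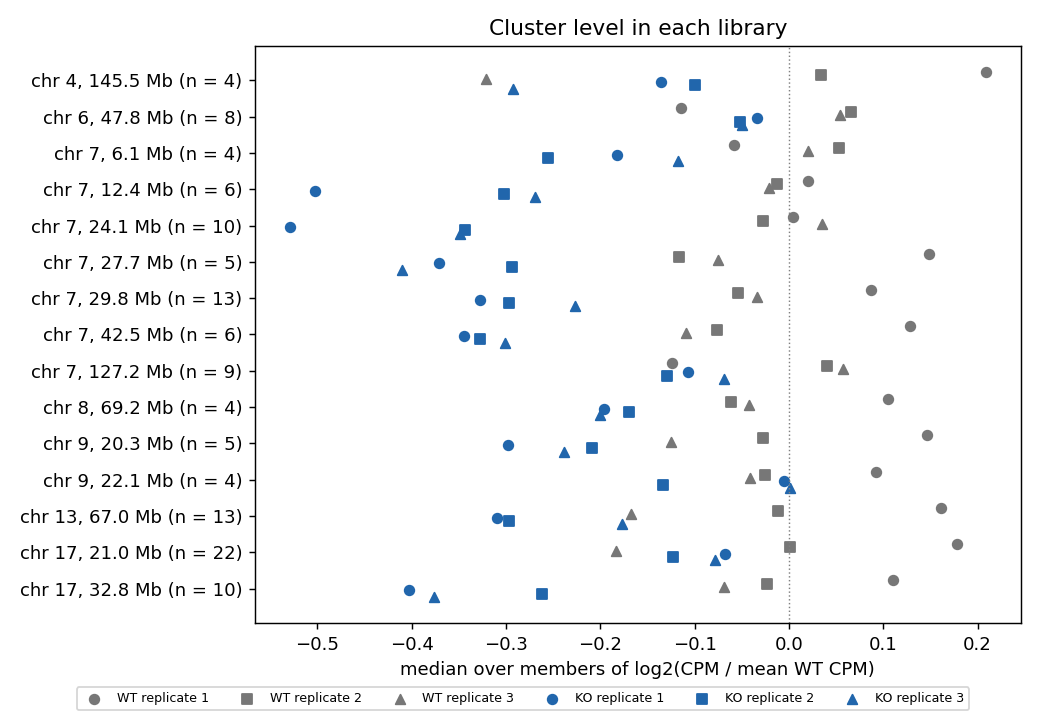
Median over each cluster's Zfp genes of the log2 ratio of CPM to the mean WT CPM, for each of the 6 libraries. In 10 clusters the 3 KO libraries lie to the left of the 3 WT libraries. WT replicate 1 is the highest WT library in several of them.

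Chromosome 17 held a cluster of KRAB genes at each of 21.0 and 32.8 Mb that differed in their values. At 32.8 Mb (chr17:32765496-33631779) the 10 genes had a median of -0.36, with 5 called lower and library medians of 0.11, -0.02 and -0.07 in WT and -0.40, -0.26 and -0.38 in KO. Zfp952 measured 7.76, 7.24 and 7.02 CPM in WT and 5.03, 5.46 and 5.43 in KO, a clear gap (-0.47 ± 0.11, adjusted p = 0.0105). Zfp870, Zfp472, Zfp799 and Zfp101 fell by 0.42, 0.42, 0.37 and 0.36. The Zfp472 call was kept in 8 of 17 refits. Those of Zfp870 and Zfp101 were lost when any 1 KO library was left out, and that of Zfp799 without WT replicate 2, KO replicate 1 or KO replicate 3. Zfp763 was at -0.43 with an adjusted p of 0.0566, and Zfp871, the most abundant there at 3.36 RPKM, was at -0.15. Zfp414, the only gene of the 10 without a KRAB match, was at 0.21 (adjusted p = 0.418), and 44.0% of its windows are shared and its exons overlap Gm20507 on the same strand.

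At 21.0 Mb the largest cluster, with 22 genes of which 20 have a KRAB match, had a median of -0.08, and the library medians of the groups overlapped (0.18, 0.00 and -0.18 in WT, -0.07, -0.12 and -0.08 in KO). Of the 22, 2 were called lower and 1 higher, with 17 negative values. Zfp760 fell from 12.02 ± 1.7 to 8.55 ± 0.78 CPM (-0.49, adjusted p = 0.0157) and Zfp53 by 0.30. The Zfp53 call was kept in 6 of 17 refits. Zfp948 was called higher (0.42 ± 0.13, adjusted p = 0.0373), but its groups overlap, with 26.1, 20.8 and 19.1 CPM in WT and 32.6, 30.3 and 25.4 in KO. Zfp52, the most abundant at 13.2 RPKM, was at -0.31 (adjusted p = 0.0525). The difference between the 2 chromosome 17 clusters was not tested.

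RefSeq promoters (GRCm38.p6, 250 bases before to 50 after the start) were matched for 231 of the 277 genes. They were searched on both strands for CCAAT (the CCAAT box), for GGGCGG (a core of the GC box), for CCGGAAG (an element of ETS factors) and for TATAAA (the TATA box), with overlaps between motifs allowed. The Zfp promoters held CCAAT in 48.9%, GGGCGG in 45.5%, CCGGAAG in 22.1% and TATAAA in 6.49%. Over the 27025 promoters of the table the shares were 37.8%, 35.6%, 9.08% and 14.1%. CCAAT was in 57.9% of promoters of KRAB genes and in 38.1% of the others. By call it was in 47.9% of 48 promoters of genes called lower and 50.3% of 177 of genes not called. Among genes called higher it was in 16.7% of 6. It was in all 9 matched promoters of the chromosome 17 cluster at 32.8 Mb, and also in all 3 of the chromosome 8 cluster, which was seen after every motif had been counted in every cluster. The promoters of 3 of the cluster's genes that fell and of Zfp414, which was not called, are shown because they let this shared feature be read beside unlike values. CCAAT and its reverse complement ATTGG are in capitals. The Zfp952 promoter is chr17:32992889-32993188 on the plus strand and that of Zfp414 chr17:33628842-33629141 on the plus strand, while those of Zfp101 (chr17:33394588-33394887) and Zfp799 (chr17:32830212-32830511) are on the minus strand.
Zfp952: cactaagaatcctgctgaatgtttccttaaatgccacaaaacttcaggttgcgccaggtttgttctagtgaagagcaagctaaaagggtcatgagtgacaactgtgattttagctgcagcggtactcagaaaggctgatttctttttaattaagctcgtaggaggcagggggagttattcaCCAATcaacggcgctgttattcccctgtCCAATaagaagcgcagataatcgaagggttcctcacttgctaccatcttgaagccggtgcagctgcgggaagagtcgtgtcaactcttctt
Zfp101: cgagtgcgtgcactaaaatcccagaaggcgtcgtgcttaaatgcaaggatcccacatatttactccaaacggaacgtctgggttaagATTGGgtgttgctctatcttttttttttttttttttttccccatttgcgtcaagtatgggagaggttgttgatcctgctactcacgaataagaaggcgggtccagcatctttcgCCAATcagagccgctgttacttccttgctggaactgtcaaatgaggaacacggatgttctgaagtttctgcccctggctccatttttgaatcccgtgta
Zfp799: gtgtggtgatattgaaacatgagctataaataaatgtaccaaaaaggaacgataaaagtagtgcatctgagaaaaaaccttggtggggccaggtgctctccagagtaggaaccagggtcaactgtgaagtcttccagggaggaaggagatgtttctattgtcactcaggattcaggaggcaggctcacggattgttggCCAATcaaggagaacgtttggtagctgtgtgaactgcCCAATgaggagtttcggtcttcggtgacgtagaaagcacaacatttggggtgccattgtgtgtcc
Zfp414: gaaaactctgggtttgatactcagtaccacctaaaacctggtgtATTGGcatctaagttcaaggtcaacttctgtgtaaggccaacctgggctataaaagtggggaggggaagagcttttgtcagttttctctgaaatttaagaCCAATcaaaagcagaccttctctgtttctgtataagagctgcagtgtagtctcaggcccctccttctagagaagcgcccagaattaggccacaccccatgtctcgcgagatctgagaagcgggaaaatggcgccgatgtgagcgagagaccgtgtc
Each of the 4 held 2 copies. Copies of the motif were thus present in promoters of genes that fell and of genes that were not called, such as Zfp871 (2 copies), Zfp563 (3) and Zfp81 (2). A match is a description of these letters and not a binding site.

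The 5 remaining clusters gave a mixed picture. On chromosome 13 at 67.0 Mb 12 of 13 values were negative, 4 genes fell and the median was -0.27, but WT replicate 3 (-0.17) lay next to KO replicate 3 (-0.18), and without WT replicate 1 the median was -0.15. Zfp459 measured 3.69, 3.34 and 3.32 CPM in WT and 2.10, 2.23 and 2.54 in KO (-0.59 ± 0.14, adjusted p = 0.012), though its exons overlap Gm48900 on the opposite strand. Zfp953, Zfp87 and Zfp748 fell by 0.49, 0.38 and 0.36, while Zfp429, the most abundant, was at -0.16 and Zfp759 at 0.03. The calls of Zfp87 and Zfp748 were lost when any 1 KO library was left out. That of Zfp953 was lost without WT replicate 1, WT replicate 2, KO replicate 1 or KO replicate 3. On chromosome 9 at 20.3 Mb all 5 genes were separated between the groups and all 5 were negative, with a median of -0.25. Separation in this direction was found in 26.6% of the other protein-coding genes. Zfp266 measured 90.5, 80.2 and 74.6 CPM in WT and 62.0, 66.7 and 65.1 in KO (-0.34 ± 0.08, adjusted p = 0.0154), and Zfp26 fell by 0.31. The Zfp26 call was kept in 7 of 17 refits. Zfp846 had the highest value there, -0.23.

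A second chromosome 9 cluster at 22.1 Mb had a median of -0.03 and 0 calls by edgeR or DESeq2, with 0 at an unadjusted p below 0.05 as well. It holds Zfp809, a KRAB protein known for silencing retroviral DNA in embryonic cells, which measured 22.2, 19.9 and 18.5 CPM in WT and 21.3, 20.4 and 20.5 in KO. Its groups overlapped (0.04 ± 0.09, adjusted p = 0.797), and Zfp810 was at -0.12 and Zfp653 at 0.04. On chromosome 8 at 69.2 Mb the 4 genes split evenly. Zfp866 measured 24.9, 22.001 and 21.6 CPM in WT and 16.8, 16.4 and 17.0 in KO (-0.45 ± 0.09, adjusted p = 0.00543) and Zfp869 fell by 0.37, while Zfp868 was at 0.06 and Zfp930 at -0.00. The median of -0.19 was -0.11 without WT replicate 1 and became 0.027 when genes from a count of 600 were included.

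The chromosome 4 cluster at 145.5 Mb had 0 calls by edgeR or DESeq2 (1 gene higher at an unadjusted p below 0.05) and a median of -0.20 (-0.08 without WT replicate 1), with library medians that overlapped. Its genes are near copies, and 57.4% of the windows of Zfp984 (0.27) and 43.7% of those of Zfp992 (-0.25) are shared. The chromosome 6 cluster at 47.8 Mb, where 3 of 8 genes have a KRAB match, had a median of -0.06, with Zfp777, the most abundant, at 0.15 and Zfp775 at -0.23. It held the Zfp gene with the highest fold change of all 277. Zfp467, a regulator of the choice between fat and bone cells, measured 2.25, 2.85 and 2.71 CPM in WT and 4.08, 4.18 and 5.39 in KO. Every KO library lay above every WT library, at 1.75 times the WT level (0.80 ± 0.15, adjusted p = 0.0047).

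Outside the clusters stood the gene with the lowest fold change. Zfp334 (chr2:165374264-165388259), a KRAB gene with 14 finger matches, measured 16.1, 16.4 and 16.9 CPM in WT and 9.23, 10.4 and 11.4 in KO. The groups were far apart, at 0.63 times the WT level (-0.67 ± 0.10, adjusted p = 0.00121), and it was called lower in all 17 refits with other settings or fewer libraries. Zfp932, which represses endogenous retroviruses in embryonic stem cells, measured 13.7, 10.8 and 10.7 CPM in WT and 6.85, 8.19 and 7.82 in KO (-0.62 ± 0.12, adjusted p = 0.00579), with 45.2% of its windows shared. Zfp105, Zfp931, Zfp248 and Zfp184 fell by 0.65, 0.60, 0.58 and 0.56. Of these, Zfp931 was the least steady, since its call was lost without WT replicate 1, WT replicate 2, KO replicate 1 or KO replicate 2 in turn. Zfp931 also reached the minimum count only through its WT counts. Zfp105 lost its call without KO replicate 1 or KO replicate 3.

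Some of the best known members were looked up by name after their values had been seen. Zfp57, which keeps imprinted regions methylated, measured 16.5, 14.2 and 15.1 CPM in WT and 10.5, 11.05 and 12.02 in KO. All KO libraries were below all WT libraries (-0.45 ± 0.10, adjusted p = 0.00943). Zfp445, which shares that task, measured 66.4, 51.0 and 54.4 CPM in WT and 45.2, 46.4 and 46.6 in KO. It was also lower in all KO libraries (-0.31 ± 0.10, adjusted p = 0.0406), but WT replicate 1 stood well above the other WT libraries and without it the log2 fold change was -0.18 and the call was lost. Zfp410, an activator of the remodeller gene Chd4, measured 47.5, 42.2 and 47.1 CPM in WT and 31.0, 34.4 and 31.7 in KO (-0.49 ± 0.08, adjusted p = 0.00248). Chd4 itself was at 0.16 ± 0.08 (adjusted p = 0.181). Zfp369, a relative of Zfp110 that also binds the p75 neurotrophin receptor, fell by 0.45, and Zfp24, which is needed for myelin formation, fell by 0.35.

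Abundant members differed among themselves. Zfp207, a spindle assembly protein and the most abundant per length of the 277 at 43.6 RPKM, measured 282, 309 and 250 CPM in WT and 315, 282 and 305 in KO, which overlap (0.10 ± 0.09, adjusted p = 0.443). Zfp664, the most abundant of those called lower at 26.8 RPKM, measured 244, 234 and 222 CPM in WT and 183, 193 and 182 in KO, without overlap (-0.33 ± 0.07, adjusted p = 0.00841). Zfp706 fell by 0.31 and Zfp740 by 0.38, both without overlap and both overlapped by a gene on the opposite strand.

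The 8 genes that rose mostly had no KRAB match, though the pattern may miss a KRAB domain. Only Zfp948 of the 8 had a match, and their median GC content was 56.7%, against 43.1% for the 57 that fell. Zfp37 measured 7.83, 7.68 and 6.38 CPM in WT and 11.5, 10.0 and 9.36 in KO (0.50 ± 0.12, adjusted p = 0.0143), and its transcript has 39.4% GC. Zfp703, a transcriptional corepressor without a C2H2 match, measured 37.8, 42.7 and 45.5 CPM in WT and 56.6, 54.1 and 54.5 in KO (0.39 ± 0.08, adjusted p = 0.00852). Zfp710 rose by 0.50, Zfp628 by 0.47 and Zfp608 by 0.25, each with separate groups. Zfp296, a factor linked to pluripotency that overlaps Gemin7 on the opposite strand, was higher by 0.50 on the log2 scale (adjusted p = 0.0372), and that call was lost when any 1 library apart from WT replicate 3 was left out. Zfp628 lost its call without KO replicate 1 or KO replicate 3, Zfp37 without KO replicate 1, and Zfp608 without any 1 library other than WT replicate 1.

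**Figure D4:**
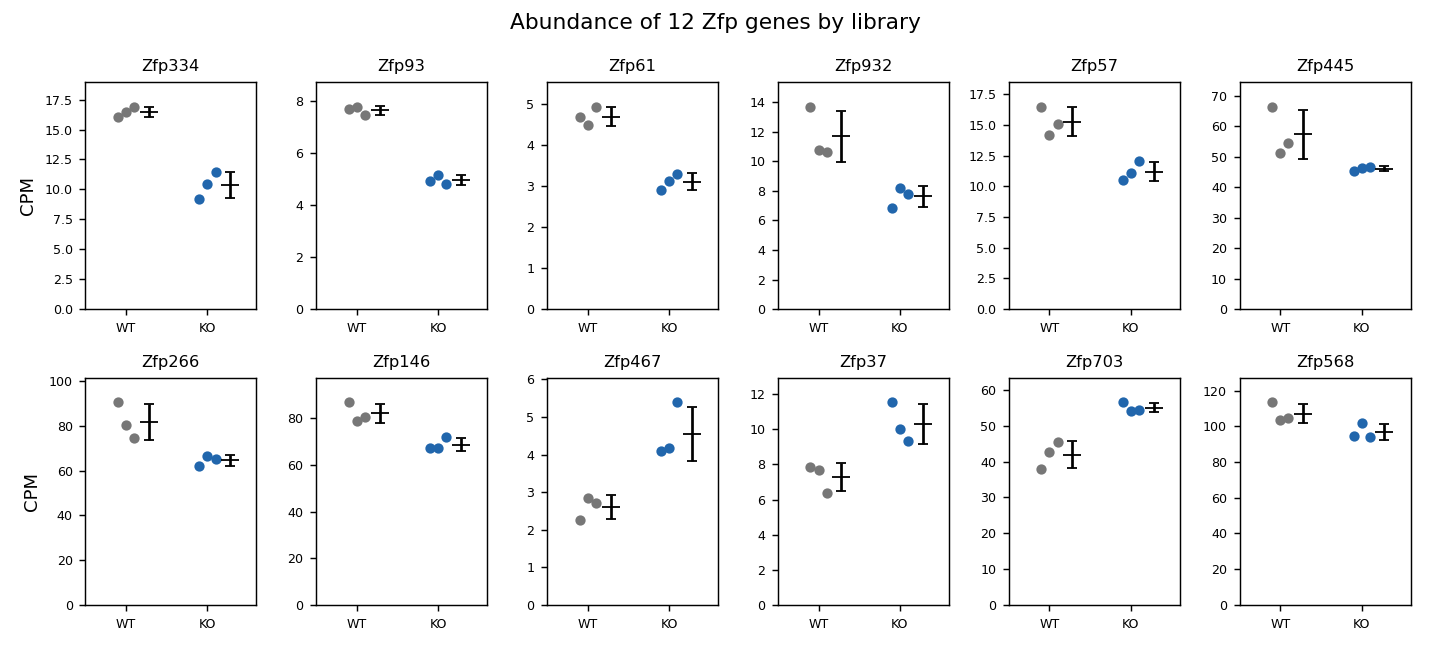
CPM in each library of 12 Zfp genes, 8 that fell, 3 that rose and Zfp568, which was not called. Points are libraries in replicate order and bars show the mean and SD over 3 libraries. The groups do not overlap in the genes that passed the test.

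Genes for the partners of KRAB proteins were also examined. Of 38 tested genes for KAP1 and heterochromatin proteins, 6 were called lower and 2 higher, with a median of -0.11. These are 15.8% and 5.26%, beside 12% and 11.9% of the other protein-coding genes. Trim28, which codes for KAP1, measured 379, 428 and 424 CPM in WT and 367, 383 and 359 in KO. The groups overlap (-0.15 ± 0.08, adjusted p = 0.183). Setdb1 was at -0.11 ± 0.07 (adjusted p = 0.265). The H3K9 methyltransferase gene Suv39h2 fell from 14.1 ± 1.5 to 9.50 ± 0.88 CPM (-0.57, adjusted p = 0.00532), and the HP1 genes Cbx1 and Cbx3 fell by 0.31 and 0.30. Chd3, Morc2a and Hdac1 fell by 0.26, 0.23 and 0.21, while Wiz, a zinc finger partner of the G9a methyltransferase, rose by 0.35 and Atf7ip, which stabilises SETDB1, rose by 0.32. Only the Suv39h2 call among these 8 was kept in all 6 fits that left out 1 library. The calls of Cbx1, Cbx3 and Wiz were lost without KO replicate 1 or KO replicate 3 and that of Atf7ip without KO replicate 2. The Chd3 call was lost without WT replicate 2 or any 1 KO library, and Morc2a and Hdac1 each lost theirs in 5 of the 6.

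Of 21 tested genes for writers, erasers and readers of H3K36 methylation, 2 were called lower and 0 higher, with a median of -0.07, and the 9.52% lower is near the 9.08% of all genes tested. These were Mtf2 (-0.33, adjusted p = 0.0378), a reader within Polycomb complexes, and Nsd2 (-0.25, adjusted p = 0.0394), which places dimethylation. Both calls were lost when any 1 library other than WT replicate 3 was left out. Setd2 measured 185, 168 and 152 CPM in WT and 163, 154 and 158 in KO (-0.08 ± 0.08, adjusted p = 0.481). A count over the whole gene does not show whether the floxed exons are absent, so it does not check the genotype.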

How the data were processed

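RNA was measured in 3 KO and 3 WT cultures, grouped and numbered by the sample titles. The authors deposited whole-number read counts per Ensembl gene and library, not normalized. Trimmomatic 0.38, STAR 2.7.1a, HTSeq 0.11.2 and mm10 are named per the submitters' processing notes. The annotation, the strand setting and the handling of reads that match several genes were given in no source used here, and near copies and overlapping genes are uncertain.

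GENCODE M21 gave symbols, coordinates and coding sequences for 48058 of the 48526 listed genes. The other 468 held 0.017% of the counts. Counts were filtered with filterByExpr, scaled with TMM factors and tested with edgeR 4.0.16 in R 4.3.3, with a threshold of 0.05 after Benjamini-Hochberg adjustment over all 17571 genes tested. Standard errors (SE) divide the log2 fold change by the root of the F statistic. RPKM used all exons of a gene. Library totals ran from 86078636 to 106974842 counts, and how much of the spread between cultures comes from counting was not measured.

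Clusters were chains of annotated Zfp genes with gaps of at most 500 kb and at least 4 members. A finger match was C, 2 to 4 residues, C, 12 residues, H, 3 to 5 residues and H. The strict KRAB match matched 127 genes (30 lower, 1 higher; 27 and 7 of the other 150). After sequences had been seen, a wider match was adopted that also takes L, M or F for the W and related residues at 4 other places and needs a D or E at the end, and it matched 143. Both the GC offset and the promoter motifs were chosen after the data had been seen, and a further motif that was searched is not reported here. The members and lists were chosen with earlier results of these data known.

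Named genes were the highest, lowest and most abundant of each cluster, the 12 lowest and the highest called genes with separate groups (up to 12, of which 7 existed), called genes of the pathway lists with Setd2, Trim28 and Setdb1, and the genes next to the count minimum. All others were named after their values had been seen.

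In simulated counts for KO against WT over 17337 genes, edgeR called 12% of genes with a true 1.25-fold change, 58% with 1.5-fold, 72% with 2-fold and 98% with 4-fold, while 7.69% of its calls were false. A chi-square per degree of freedom of 22.7 to 77.1 between replicates showed no duplicate library. Alternatives were other scalings and filters, DESeq2 1.42.0, limma-voom 3.58.1, a replicate block, an Xist term, other count minimums and gaps, and leaving out libraries. Python 3.11.15, pandas 2.3.3, bedtools 2.31.1 and matplotlib 3.10.9 were used.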

Additional observations from a re-analysis of the deposited data

How the results depend on the processing

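Against 57 Zfp genes called lower and 8 higher, other scalings, filters and tools gave 44 to 71 lower and 8 or 9 higher (DESeq2 69 and 9, limma-voom 55 and 8). The GC offset gave 62 and 12, of which 52 of those lower were among the 57. A minimum count of 600 gave 59 and 8 of 297 genes, and one of 2400 gave 48 and 7 of 228. An Xist term left 13 lower and 1 higher, and leaving out the Xist-positive libraries left 3 and 0, both with fewer residual degrees of freedom. Leaving out 1 library in turn gave 10 (without KO replicate 1) to 74 (without WT replicate 3) lower and 3 to 8 higher. Besides KO replicate 1, leaving out WT replicate 2 (36 lower and 5 higher), KO replicate 2 (34 and 5) or KO replicate 3 (25 and 5) lowered a count by more than 1.5 times. Replicate numbers did not pair the samples (same-number correlations 0.042, -0.146 and 0.032), and a replicate block gave 55 lower and 9 higher, 53 of the lower shared.

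The Zfp median of -0.16 was -0.11 with the GC offset, and -0.20 to -0.11 when 1 library was left out. Among cluster medians under the alternatives, 15 moved by more than the spread between libraries and 300 did not. With the Xist term the medians at 12.4 and 24.1 Mb on chromosome 7 were -0.50 and -0.53, and without the Xist-positive libraries -0.50 and -0.53, which is no second support, since KO replicate 1 alone carries both fits. At a count of 2400 they were -0.21 and -0.23, and the median at 6.1 Mb was -0.069. With a gap of 1000 kb the latter was -0.31. The chromosome 8 median was -0.094 with the GC offset, 0.027 at a count of 600 and -0.37 with a gap of 250 kb. On chromosome 17 the median at 32.8 Mb was -0.27 with the GC offset. Leaving out 1 library gave -0.40 to -0.22 at 12.4 Mb, -0.49 to -0.32 at 24.1 Mb and -0.25 to -0.11 on chromosome 8. The cause of these shifts was not tested.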
